A study of Bos taurus with 16 samples.

Results

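Genes of the cell cycle and of mitosis were read out from bovine Affymetrix arrays of endometrium and of blastocysts. A probe set was a member when the platform annotation gave it a single symbol beginning with CCNA, CCNB, CCND, CCNE, CDK and a digit, CDKN, CDC and a digit, CENP, KIF, MCM and a digit, BUB, AURK or PLK, or the symbol NDC80, NUF2, SPC24, SPC25, TOP2A, MKI67 or PCNA. The 10 probe sets of the CDC42 family were left out. This gave 141 probe sets for 98 genes, among 24016 probe sets that were not controls and 9155 genes with a single symbol. MKI67, TOP2A, MCM2, CDK6, CDKN1B, NUF2 and SPC25 had no probe set with a single symbol and are not analysed here.

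The 16 arrays fell into 6 groups from a series of 49 superovulated cows. Cows counted as subclinical endometritis (SE) when a brush sample of the uterine lining held polymorphonuclear cells and as healthy (HE) when it held 0. Endometrium was brushed immediately before the embryos were flushed (day 7; 3 SE and 2 HE arrays) and 2 h before insemination (day 0; 3 SE and 3 HE arrays). The flushed blastocysts, in pools of 10, were split by the status of their donors at flushing (3 SE and 2 HE arrays). Every array, HE or SE, carried RNA of pooled samples from superovulated cows, amplified in 2 rounds from 15 ng, so p-values measure the spread between pools and not between cows.

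The cell cycle is driven by cyclins that bind and activate cyclin-dependent kinases (CDKs). D cyclins start the passage out of G1, and cyclin E and CDK2 open S phase. The MCM helicase and the sliding clamp PCNA serve the copying of the DNA, and cyclins A and B with CDK1 drive mitosis. In mitosis, kinetochores assembled on CENP proteins bind the spindle, kinesins move chromosomes and microtubules, and the checkpoint proteins BUB1, BUB1B and BUB3 hold back CDC20 and the anaphase-promoting complex until all chromosomes are attached. CDK inhibitors such as p21 (CDKN1A) stop the cycle. A blastocyst consists of rapidly dividing cells, while the bovine uterine lining is remodelled between oestrus, under oestrogen, and the early luteal phase, under progesterone.

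The prefixes also gather genes with little or no role in division, so members were described by role. There were 4 probe sets for D cyclins and CDK4, 10 under the heading of CDK inhibitors, 16 for S phase and replication, 11 for mitotic cyclins and kinases, 9 for the checkpoint and the anaphase-promoting complex, 19 for the centromere and kinetochore and 9 for mitotic kinesins. Another 16 stood for transport and ciliary kinesins, 31 for other CDKs and their partners, 2 for the stress-induced kinases PLK2 and PLK3, and 14 for genes that share only the name, such as CDC123 and CDC37. Of the 10 under CDK inhibitors, those of CDKN2AIP and CDKN2AIPNL are named after an inhibitor and are not inhibitors themselves. A gene had up to 4 probe sets, and 34 genes had several.

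Signals are on the log2 scale, and only probe sets with a signal over 4 on 2 or more arrays of a tissue were tested there. Of the 141 members, 106 (75.2%) passed in blastocysts and 90 (63.8%) in endometrium, against 45.9% and 55.9% of all probe sets. Passing in both tissues were 81, in blastocysts alone 25, in endometrium alone 9, and in neither 26. Of all 24016 probe sets, 11014 passed in blastocysts, 13421 in endometrium and 14640 in either tissue. By gene, 18 had a probe set above the filter in blastocysts and none in endometrium, and 4 the reverse.

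The genes found above the filter in blastocysts alone were largely those of mitosis and of S phase. CCNA2 encodes cyclin A2, which acts in S phase and early mitosis. Its blastocyst signals were 9.18, 10.13 and 10.07 in SE and 10.05 and 10.26 in HE, while all 11 endometrium arrays read between 2.23 and 2.37. The checkpoint kinase BUB1B read 10.40, 11.13 and 10.75 in SE blastocysts and 10.79 and 10.75 in HE blastocysts, against 2.30 to 3.47 in endometrium. Cyclin B2 (CCNB2), CDC20, the kinetochore component NDC80, the replication factors CDC6 and CDC45, cyclin E1 (CCNE1), the phosphatase CDC25C, and the mitotic kinesins KIF2C, KIF4A, KIF20A and KIFC1 were also above the filter in blastocysts only. The genes above it in endometrium alone were CCND1, CDKN1A, CDK3 and CENPO.

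Because it is not given whether the tissues were normalized together, the filter counts and signals above may not be comparable between tissues. Array medians were 3.08 to 3.12 in blastocysts and 4.18 to 4.30 in endometrium. Each probe set was therefore also ranked among all 24016 of its own array, and the ranks were set side by side. The median member ranked at the percentile 74.5 in blastocysts and 56.9 in endometrium. Among the 115 members above the filter in either tissue, 60 (52.2%) ranked higher on all 5 blastocyst arrays than on any of the 11 endometrium arrays and 22 (19.1%) ranked lower. Over all 14640 probe sets above the filter in either tissue, 31.4% ranked higher and 31.7% lower. These shares are a description, with no test. Of the 115 members, 25 were above the filter in blastocysts alone and 9 in endometrium alone. For these a difference in rank was partly built into their selection. A rank also carries what differs between the arrays of the tissues in RNA quality, given below.

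**Figure D1:**
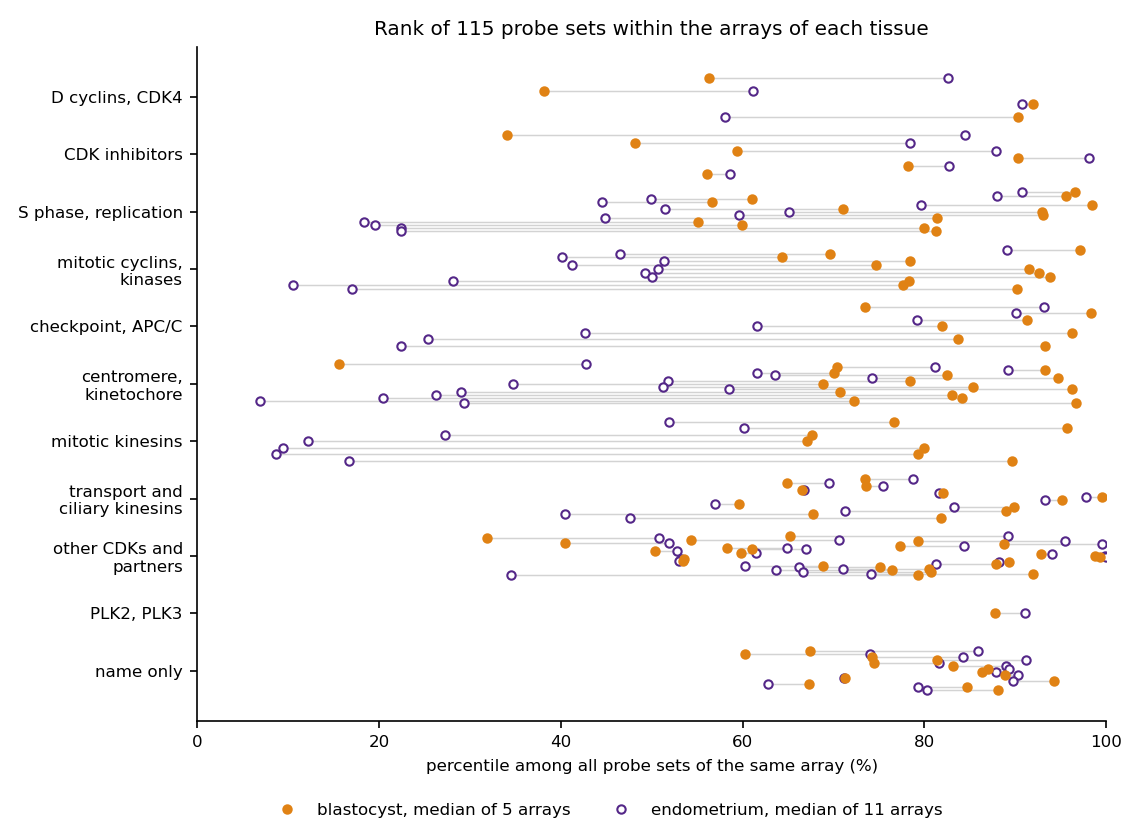
Percentile of each of the 115 members above the filter in either tissue, grouped by role, on the horizontal axis (in %); filled orange points are medians of 5 blastocyst arrays, open purple points medians of 11 endometrium arrays, and a grey line joins the points of a probe set. In the roles of division (S phase to mitotic kinesins) most orange points lie to the right. Those of transport kinesins and other CDKs are mixed. Of the 115 members, 25 were above the filter in blastocysts alone. Of the 6 probe sets under CDK inhibitors, 4 belong to CDKN2AIP and CDKN2AIPNL.

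The shares varied with the role. All 7 mitotic kinesins above the filter, 12 of 13 probe sets of S phase, 10 of 11 of mitotic cyclins and kinases, 6 of 7 of the checkpoint group and 11 of 15 of the kinetochore ranked higher on every blastocyst array. In the same order of roles, 2 of 7, 9 of 13, 5 of 11, 5 of 7 and 9 of 15 were above the filter in endometrium. The rest passed it through blastocysts alone, so a higher blastocyst rank was partly built into their selection. Among transport and ciliary kinesins 4 of 12 ranked higher. Of the 6 probe sets above the filter under the heading of CDK inhibitors 0 ranked higher on every blastocyst array and 3 ranked lower, and those 3 belong to CDKN2AIP and CDKN2AIPNL, which are not inhibitors. CCNA2 had a median percentile of 90.2 in blastocysts and 17.0 in endometrium. KIF20A, a kinesin of the central spindle, stood at 89.7 and 16.7 with 1 probe set and at 67.6 and 27.3 with the other. PCNA differed less, at 96.6 in blastocysts and 90.8 in endometrium, yet did not overlap between tissues.

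The D cyclins parted. CCND2 had a median percentile of 90.3 in blastocysts and 58.0 in endometrium. CCND1 and CCND3 ran the other way, at 38.2 and 56.4 in blastocysts against 61.2 and 82.6 in endometrium. Neither CCND2, CCND1 nor CCND3 overlapped between tissues in rank. The inhibitor CDKN1A ranked at 48.1 in blastocysts and 78.5 in endometrium, but its endometrium percentiles ran from 45.4 to 88.3 and overlapped with those of blastocysts. The overlap came from day 7, when its signal was low. CDKN1C, at 59.4 in blastocysts and 88.0 in endometrium, overlapped as well.

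Arrays were checked against markers of their tissue. Trophectoderm and inner cell mass genes were above the filter for 4 of 4 markers on every blastocyst array and 0 of 4 on every endometrium array, and CDX2, GATA3 and NANOG were not measured with a single symbol. All endometrium arrays had 5 of 6 epithelial markers, with KRT8 the exception, and 5 or 6 of 6 stromal markers above the filter. Endometrium arrays correlated within day at a mean r of 0.975 or more, except SE day 0 replicate 2, at 0.961. RNA quality differed between tissues: the 3′ minus 5′ difference of the GAPDH control was 4.97 to 5.85 in blastocysts and 0.03 to 0.58 in endometrium.

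Between day 0 and day 7 the endometrium changed in a limited set of members, and those with the widest swings were SPC24, CCNB1 and CDKN1A. In SE endometrium 32 of the 90 members above the filter passed limma's moderated test at an adjusted p of 0.05, 22 higher and 10 lower on day 7. That is 35.6%, against 50.1% of all 13421 probe sets tested, and by direction 24.4% against 26.0% higher and 11.1% against 24.1% lower. In HE endometrium 27 members passed, 17 higher and 10 lower, which is 30.0% against 45.0% of all, with 18.9% against 21.8% higher and 11.1% against 23.2% lower. The median change was 0.05 on the log2 scale in SE and 0.00 in HE, beside 0.01 and -0.03 over all probe sets.

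The SE and HE contrasts share no array in their means. Both come from 1 fit of the 11 endometrium arrays with a common estimate of spread, so their calls are not independent. They shared 25 called members from 21 genes, 17 higher and 8 lower in both, which is 78.1% of the SE calls and 92.6% of the HE calls. Of all probe sets 19.6% were called higher in both and 19.0% lower in both, against 18.9% and 8.89% of members. Called in opposite directions were 0 members (0.00745% of all probe sets). On all 5 day 7 arrays 19 members lay above all 6 day 0 arrays (21.1%, against 22.7% of all) and 10 lay below (11.1%, against 22.8%). Of the 34 members called in either status, 3 passed the filter through 1 day: CCNE2 and CDK2 were above it on arrays of that day only, and a probe set of MCM6 was above it on 5 day 0 arrays and 1 day 7 array. A difference was thus built into their selection.

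**Figure D2:**
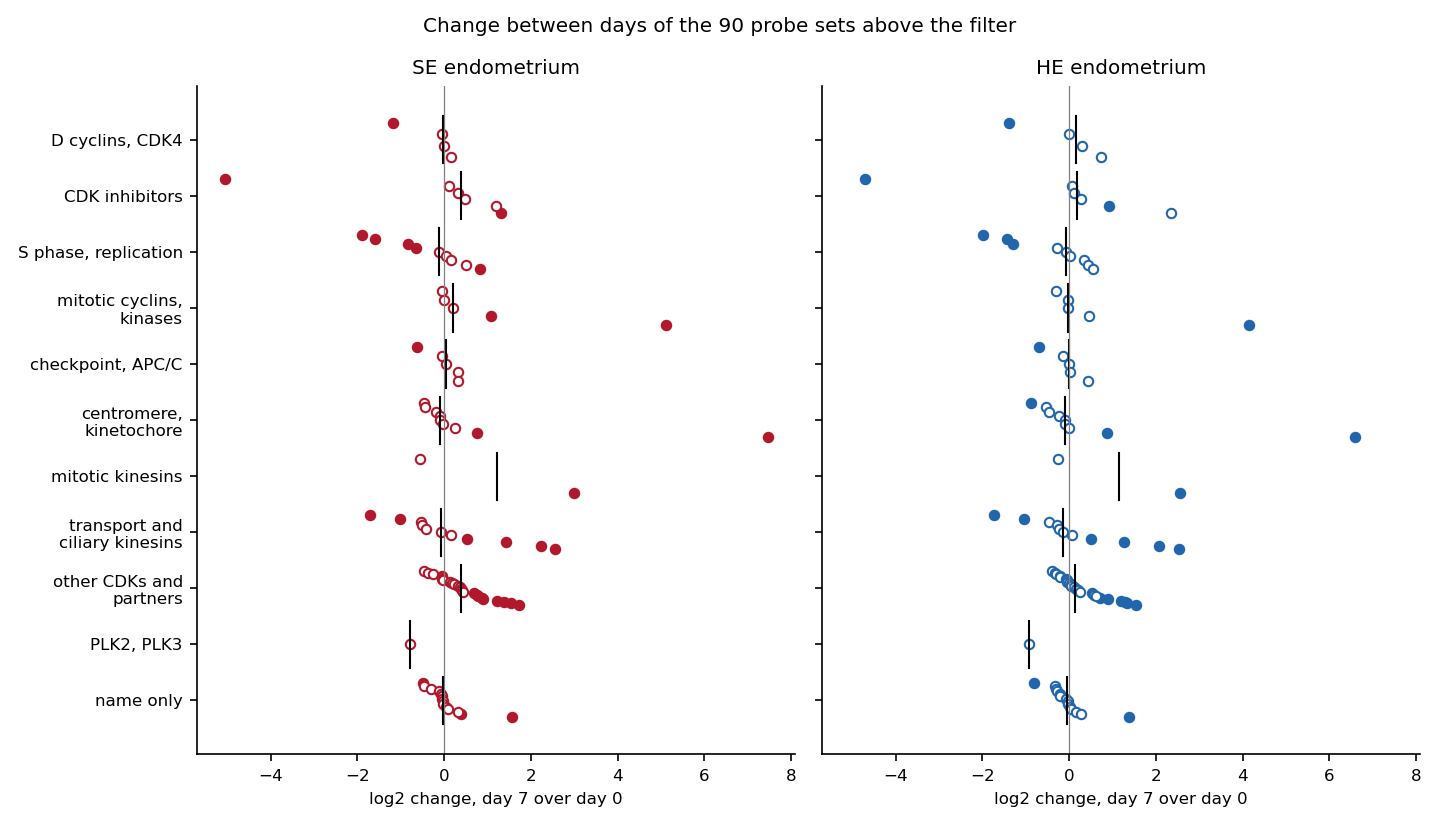
Change of the 90 members above the filter, day 7 over day 0 on the log2 scale (horizontal axis), by role, in SE endometrium (left, red) and HE endometrium (right, blue); filled points passed limma's test at an adjusted p of 0.05, open points did not, and black bars are medians of a role. Most points lie near 0, and the far points, SPC24 and CCNB1 on the right and CDKN1A on the left, hold the same place in both panels.

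SPC24, a subunit of the NDC80 complex that couples kinetochores to microtubules, was near the top of the scale on day 7. It read 13.34, 13.67 and 13.35 in SE on day 7, against 6.80, 5.19 and 5.97 in SE on day 0. In HE it read 13.26 and 13.72 on day 7, against 6.90, 6.10 and 7.72 on day 0. All 5 day 7 arrays lay far above all 6 day 0 arrays. The change was 7.46 ± 0.45 (log2, standard error) in SE, or 176-fold (limma adjusted p = 9.01e-07), and 6.58 ± 0.50 in HE, or 95.8-fold (limma adjusted p = 5.92e-06).

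CCNB1 encodes cyclin B1, the partner of CDK1 at entry into mitosis. Its signal was 13.22, 13.18 and 12.99 in SE on day 7, against 8.20, 8.83 and 7.04 in SE on day 0, and 12.86 and 13.03 in HE on day 7, against 8.31, 8.43 and 9.66 in HE on day 0. The days did not overlap. It rose by 5.10 ± 0.45 in SE (limma adjusted p = 9.86e-06) and by 4.15 ± 0.50 in HE (limma adjusted p = 0.000111). SPC24 and CCNB1 each have 1 probe set among the members, designed on an expressed sequence tag, and the transcripts these bind were not checked here.

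The mitotic kinases above the filter did not share the size of this change. CDK1, the mitotic kinase, read 4.30, 5.33 and 4.63 in SE on day 7, against 4.19, 3.87 and 2.94 in SE on day 0. Its change of 1.09 ± 0.41 in SE was just past the threshold (limma adjusted p = 0.0494) and missed it without SE day 0 replicate 3 (0.72, adjusted p = 0.172) or SE day 7 replicate 2 (0.80, adjusted p = 0.167). The call was also lost without SE day 7 replicate 3, SE day 0 replicate 2 or HE day 0 replicate 1 or 2 (1.09 to 1.19). In HE its change was 0.45 ± 0.46 (adjusted p = 0.456). Polo-like kinase PLK1 differed by 0.00 in SE and -0.03 in HE, and the aurora kinase AURKA by -0.05 and -0.30, none of which passed. Both lay near the filter, PLK1 at endometrium percentiles of 51.0 to 52.0 and AURKA at 49.9 to 53.2. Medians of the endometrium arrays were 4.18 to 4.30, so these small differences say little about whether the 2 genes changed. CCNA2, CCNB2, CDC20 and NDC80 stayed under the filter on every endometrium array.

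**Figure D3:**
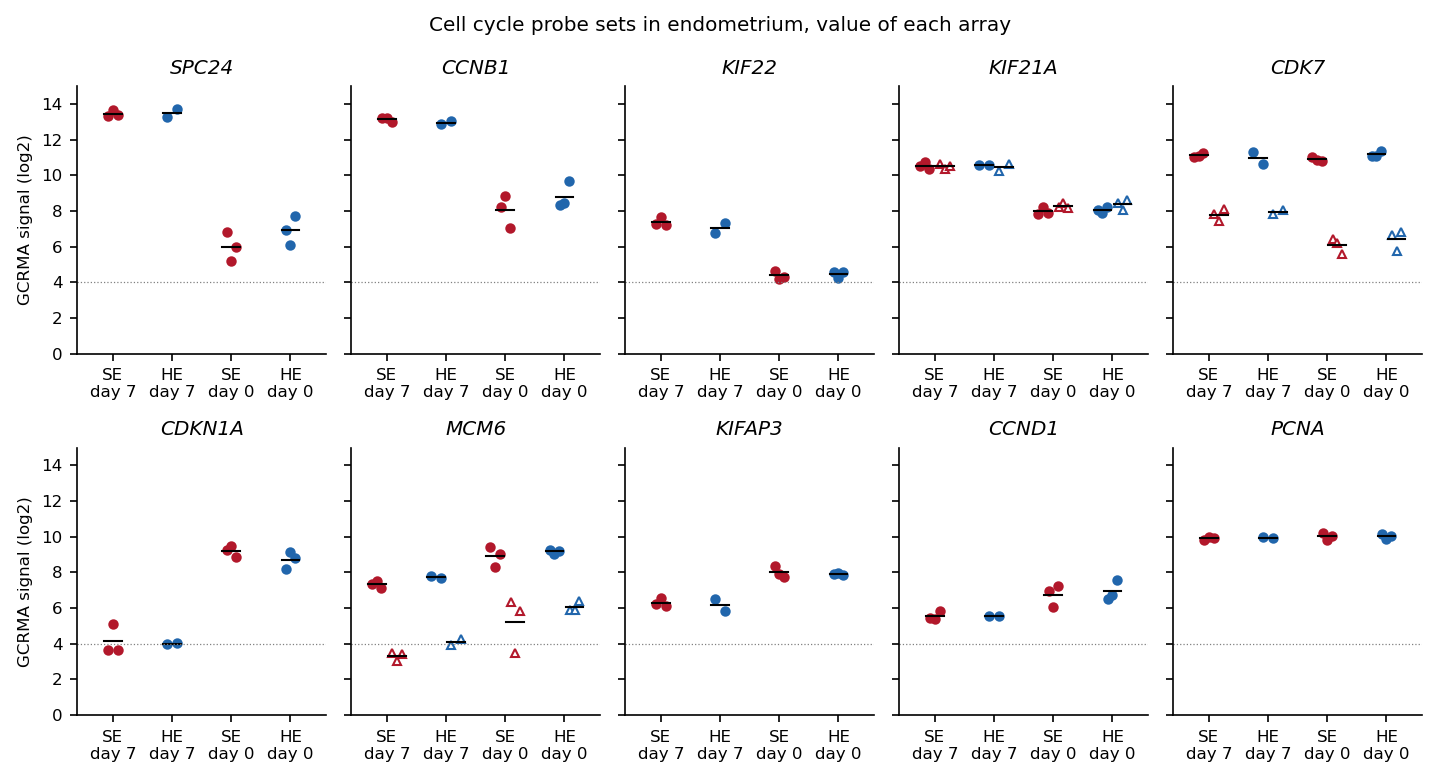
GCRMA signal (log2, vertical axis) of 10 members on each endometrium array, SE in red and HE in blue, day 7 left of day 0; black bars are group means, the dotted line marks the filter at 4, and triangles are the second probe set of a gene. SPC24, CCNB1, KIF22 and KIF21A are higher on all day 7 arrays, CDKN1A, KIFAP3 and CCND1 lower, CDK7 splits by probe set, and PCNA stays between 9.82 and 10.18.

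CDKN1A, which encodes the CDK inhibitor p21, fell between the days. It read 3.65, 5.13 and 3.66 in SE on day 7, against 9.24, 9.50 and 8.88 in SE on day 0. The HE arrays read 3.99 and 4.01 on day 7, against 8.18, 9.16 and 8.82 on day 0. The change was -5.06 ± 0.39 in SE, 33.4-fold lower (limma adjusted p = 4.54e-06), and -4.72 ± 0.44 in HE, 26.3-fold lower (limma adjusted p = 2.13e-05). On day 7 the gene lay at or near the filter, so the size of the fall rests on low signals.

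The other inhibitor with large differences, CDKN1C (p57), varied too much within day 0 to pass. It read 9.48, 9.99 and 9.82 in SE on day 7, against 8.89, 10.05 and 6.75 in SE on day 0, and 10.19 and 10.10 in HE on day 7, against 5.82, 8.93 and 8.67 in HE on day 0. Its change was 1.20 ± 0.89 in SE (limma adjusted p = 0.288) and 2.34 ± 1.00 in HE (limma adjusted p = 0.0822, and 0.0412 without SE day 0 replicate 3, which changes only the estimate of spread). Among the 3 probe sets of CDKN2AIPNL above the filter, 1 rose by 1.31 in SE and 0.92 in HE, and the other two changed by 0.11 to 0.48 without passing.

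Cyclin D1 (CCND1), which links growth signals to the cycle, was lower on every day 7 array. It read 5.46, 5.40 and 5.84 in SE on day 7, against 6.97, 6.07 and 7.21 in SE on day 0, and 5.55 and 5.57 in HE on day 7, against 6.49, 6.76 and 7.58 in HE on day 0. The change was -1.18 ± 0.33 in SE (limma adjusted p = 0.0138) and -1.38 ± 0.37 in HE (limma adjusted p = 0.0125). The SE call was lost without SE day 0 replicate 3 (-0.95, adjusted p = 0.0528), and the HE call without HE day 7 replicate 1 (-1.38, adjusted p = 0.0576) or replicate 2 (-1.39, adjusted p = 0.0594). CCND2, CCND3 and CDK4 changed by 0.00, -0.06 and 0.16 in SE and by 0.74, 0.30 and 0.01 in HE, without passing. CCND2 in HE passed at 1.34 (adjusted p = 0.00817) when HE day 7 replicate 2 was left out, since the remaining array read 6.80 and the one left out 5.61.

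Replication genes did not move as a block. MCM6, a subunit of the replicative helicase, fell with both probe sets. The first read 7.36, 7.51 and 7.11 in SE on day 7, against 9.41, 8.31 and 9.04 in SE on day 0, and 7.82 and 7.68 in HE on day 7, against 9.28, 9.01 and 9.22 in HE on day 0. It fell by 1.59 ± 0.25 in SE (limma adjusted p = 0.000457) and by 1.42 ± 0.28 in HE (limma adjusted p = 0.00223). The second changed by -1.90 and -1.98 (limma adjusted p = 0.0219 and 0.0336). It passed the filter through the arrays of day 0, as given above. Its SE call was lost without SE day 0 replicate 1 (-1.35) or 3 (-1.59) or SE day 7 replicate 2 (-1.76), and its HE call without any 1 of the 5 HE arrays (-1.80 to -2.15).

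The other helicase subunits differed from MCM6. MCM7 fell by 0.64 ± 0.17 in SE (limma adjusted p = 0.00877) and changed by -0.29 ± 0.18 in HE (adjusted p = 0.235). MCM3, MCM4 and MCM5 changed by 0.50, 0.04 and 0.16 in SE and by 0.35, 0.01 and 0.55 in HE, and none passed. PCNA lay between 9.82 and 10.18 on all 11 arrays, with changes of -0.11 in SE and -0.07 in HE. CDK2 fell by 0.83 in SE and 1.29 in HE, from signals already at or below 4.39 on every array. Cyclin E2 (CCNE2) changed by 0.82 ± 0.27 in SE (limma adjusted p = 0.0297) at signals of 4.24, 3.64 and 4.98 on day 7 and 3.35, 3.50 and 3.54 on day 0. That call was lost without any 1 of the SE day 0 arrays (0.77 to 0.86, adjusted p 0.0541 to 0.0807). CDK2 and CCNE2 passed the filter through arrays of 1 day only, so a difference was built into their selection, as given above.

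In the spindle checkpoint, BUB3 fell by 0.62 ± 0.17 in SE (limma adjusted p = 0.0142) and by 0.69 ± 0.20 in HE (limma adjusted p = 0.0159). All 5 day 7 arrays, at 9.39 to 9.73, lay below all 6 day 0 arrays, at 9.84 to 10.42. Without SE day 0 replicate 1 or 3 the SE change was -0.53 or -0.52 (adjusted p = 0.0524 or 0.0529), and without HE day 7 replicate 2 the HE change was -0.52 (adjusted p = 0.133). At the centromere, CENPS, a histone-fold protein of the inner kinetochore, rose by 0.76 ± 0.16 in SE (limma adjusted p = 0.00302) and by 0.88 ± 0.18 in HE (limma adjusted p = 0.00313). CENPI changed by -0.43 in SE (adjusted p = 0.101) and fell by 0.89 in HE (limma adjusted p = 0.00996; -0.83 and 0.0605 without HE day 7 replicate 1).

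Kinesins moved in both directions. KIF22, which binds chromosome arms in mitosis, read 7.24, 7.64 and 7.19 in SE on day 7, against 4.62, 4.20 and 4.30 in SE on day 0. In HE it read 6.74 and 7.33 on day 7, against 4.59, 4.25 and 4.58 on day 0. The days were far apart, and the rise was 2.98 ± 0.21 in SE (limma adjusted p = 2.12e-06) and 2.56 ± 0.23 in HE (limma adjusted p = 1.67e-05). KIF23, the other mitotic kinesin above the filter, changed by -0.55 in SE (adjusted p = 0.0586) and -0.25 in HE (adjusted p = 0.431).

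Among kinesins grouped as transport and ciliary, KIF21A, which restrains microtubule growth, rose with both probe sets above the filter, by 2.56 and 2.23 in SE and by 2.53 and 2.06 in HE. KIF2A, a depolymerase that also works at the spindle poles in mitosis, rose by 1.42 in SE (limma adjusted p = 0.000264) and 1.26 in HE (limma adjusted p = 0.00145). KIFAP3, the cargo adaptor of the kinesin-2 motor that also serves cilia, fell by 1.71 ± 0.22 in SE (limma adjusted p = 0.00012) and by 1.72 ± 0.24 in HE (limma adjusted p = 0.000304). KIF1C, a transport motor, fell by 1.01 and 1.04. The KIF-binding protein KIFBP rose by 0.53 in SE and 0.51 in HE.

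Among other CDKs and their partners, 9 of 24 probe sets rose in SE and 7 of 24 in HE, and 0 fell. Over all probe sets 26.0% rose and 24.1% fell in SE, and 21.8% rose and 23.2% fell in HE. CDK16 rose by 1.54 ± 0.19 in SE (limma adjusted p = 8.61e-05) and by 1.33 ± 0.21 in HE (limma adjusted p = 0.00061) with 1 probe set. The other changed by 0.79 and 0.63, past the threshold in SE alone. CDK20, known for work at the primary cilium, rose with both probe sets, by 1.38 and 0.70 in SE and by 1.29 and 0.71 in HE. CDK10 also rose with both, by 1.21 and 0.87 in SE and by 1.20 and 0.89 in HE. CDK11B, a kinase linked to splicing and mitosis, rose by 0.90 and 0.54, and CDK5 changed by 0.75 in SE (limma adjusted p = 0.0422) and 0.58 in HE (adjusted p = 0.153).

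CDK7, which activates other CDKs and acts in transcription, depended on the probe set. The second read 7.82, 7.42 and 8.08 in SE on day 7, against 6.42, 6.21 and 5.56 in SE on day 0, a rise of 1.71 ± 0.32 (limma adjusted p = 0.00138), and rose by 1.55 ± 0.36 in HE (limma adjusted p = 0.00558). The first, at 10.61 or more on every array, changed by 0.24 in SE and -0.22 in HE and did not pass. CCNDBP1, a cyclin D-binding protein, split likewise, with 0.39 in SE (limma adjusted p = 0.0148) for the first probe set and -0.11 for the second.

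Of the genes that share only the name, CDC123, an assembly factor of translation initiation, rose by 1.57 ± 0.17 in SE (limma adjusted p = 3.42e-05) and by 1.38 ± 0.19 in HE (limma adjusted p = 0.000228). The chaperone partner CDC37 changed by -0.48 in SE (limma adjusted p = 0.0333) and -0.30 in HE, and its SE call was lost without SE day 0 replicate 1 or 3 or SE day 7 replicate 1 or 3 (-0.36 to -0.49). AURKAIP1, a mitochondrial ribosome protein, changed by -0.46 in SE (adjusted p = 0.0618) and fell by 0.80 in HE (limma adjusted p = 0.00974; -0.66 and 0.0821 without HE day 7 replicate 2). The kinase PLK2 changed by -0.79 in SE and -0.93 in HE and passed in neither (limma adjusted p = 0.069 and 0.0629).

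Cell cycle genes outside the prefixes were listed separately, 101 probe sets with 59 above the filter in endometrium. In SE 10 of these were higher and 9 lower on day 7, and in HE 11 were higher and 7 lower. Over all probe sets 26.0% were higher and 24.1% lower in SE, and 21.8% and 23.2% in HE. WEE1, which holds back CDK1, fell by 4.56 in SE and 4.63 in HE. RRM1, the large subunit of ribonucleotide reductase, fell by 2.04 and 2.50, and the microtubule regulator STMN1 by 1.97 and 1.79. Thymidine kinase TK1 rose by 1.81 and 1.60 and the condensin subunit NCAPD2 by 1.20 and 1.08. The spindle protein HMMR rose by 2.15 and 2.04 with 1 of its probe sets. Another read 4.04 to 4.86 on day 7 against 3.36 to 3.73 on day 0, and a further one 3.44 to 4.10 against 3.27 to 3.44. Both of these lay near the filter and passed it through day 7 arrays only, so a difference was built into their selection.

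Cell markers moved with the day as well. The summed linear signal of the 6 epithelial markers was 14207.8 to 16997.2 in SE and 16926.1 to 17091.8 in HE on day 7, against 32934.7 to 43810.3 in SE and 31711.1 to 36983.9 in HE on day 0. The fall was not shared by the list. KRT18, KRT19 and EPCAM were lower on all day 7 arrays, while CDH1 was mostly higher, at 10.24 to 11.33 against 9.34 to 10.26. CLDN3 overlapped between days and KRT8 lay below the filter. The summed signal of the 8 neutrophil and monocyte markers was 928.8 to 2742.4 in SE and 436.8 to 1572.4 in HE on day 7, against 5526.2 to 26971.2 in SE and 1713.5 to 5494.5 in HE on day 0. S100A12, S100A8 and CXCL8 carry most of that sum on the day 0 arrays, and the list did not move together. S100A12 and CD14 were lower on all day 7 arrays. ITGB2 went the other way, at 6.08 to 6.50 on all day 7 arrays against 4.96 to 5.54 on all day 0 arrays. TYROBP, and FCER1G near the filter, overlapped between days with their highest values on day 7. The leukocyte marker PTPRC, outside that list, read 7.34 to 9.23 on day 7 and 6.94 to 7.79 on day 0. Lymphocyte sums overlapped, at 403.0 to 4949.9 on day 7 and 786.2 to 4121.6 on day 0. JCHAIN had the largest signal of that list on every endometrium array, and single markers differed. CD3E read 5.63 to 7.22 on day 7 against 4.40 to 5.76 on day 0, and CD2 5.53 to 6.99 against 4.75 to 5.58. LCK tended the other way, at 6.04 to 7.62 against 7.31 to 8.11. CD3D overlapped widely, at 5.15 to 6.86 against 4.85 to 7.53. Stromal sums overlapped between days, at 2106.5 to 8484.8 on day 7 and 2173.5 to 10840.7 on day 0, with 5 or 6 of 6 markers above the filter. The 5 endothelial markers summed to 49.9 to 96.6 in SE and 83.4 to 166.0 in HE on day 7, against 24.1 to 26.6 in SE and 24.5 to 27.0 in HE on day 0. Of these 5, 1 was above the filter on day 7 (CLDN5, at 4.90 to 7.20) and 0 on day 0, and VWF and CDH5 lay far below it on all arrays. In bulk samples fewer cells of a type and less RNA per cell cannot be told apart, and the part of cell composition in the changes above was not tested.

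Whether subclinical endometritis altered these genes in the endometrium was asked on each day. On day 0, SE over HE, 0 of 90 members passed limma's test (3 of all 13421 probe sets, 0.0224%; smallest adjusted p among members 0.61), and 2 had an unadjusted p under 0.05 (7.6% of all). The groups did not overlap for 1 member higher in SE (3.58% of all) and 4 lower (9.24% of all). Means were lower in SE for 60 of 90 members, or 66.7%, against 61.1% of all probe sets. The smallest p values were those of CDC40, a splicing factor, at 8.42, 8.12 and 7.64 in SE against 8.71, 8.32 and 8.67 in HE (-0.51 ± 0.20), and of CENPI at 4.94, 5.06 and 4.42 in SE against 5.54, 5.10 and 5.31 in HE (-0.51 ± 0.20).

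Other members of small p on day 0 were SPC24 (-0.92 ± 0.45), CCNB1 (-0.78 ± 0.45) and the anaphase-promoting complex subunit CDC26 (-0.36 ± 0.19) on the lower side. On the higher side stood CCND3 (0.25 ± 0.13), CENPS (0.26 ± 0.16), CDKN1A (0.49 ± 0.39), CDK3 (0.23 ± 0.21) and the ciliary kinesin KIF27 (0.32 ± 0.27). The KIF27 value rested on SE replicate 2, at 6.44, and was -0.03 without it. The 3 ciliated epithelium markers summed to 1550.7 on that array, 638.2 and 583.2 on the other SE arrays and 227.1 to 443.8 on the HE arrays of day 0. CCND3 was the 1 member whose SE arrays, at 8.78, 8.72 and 8.88, all lay above the HE arrays, at 8.44, 8.57 and 8.62. The summed neutrophil and monocyte markers given above were also higher on every SE array of day 0 than on every HE array. The margin was small, at 5526.2 on SE replicate 1 against 5494.5 on HE replicate 1. Single markers overlapped: S100A8 read 9.07 and 9.39 on SE replicates 1 and 2 against 9.58 on HE replicate 1. S100A12 read 11.57 on SE replicate 1 against 11.68 on HE replicate 1. The part of these cell types in the values was not tested.

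On day 7, SE over HE, 0 of 90 members passed limma's test (0.0% of all 13421 probe sets), and 0 had an unadjusted p under 0.05 (3.55% of all). The groups did not overlap for 6 members higher (7.93% of all) and 8 lower (8.33% of all). SPC24 and CCNB1, so high on this day, differed between the statuses by less than their spread, CCNB1 by 0.18 ± 0.50. The smallest p values on the higher side were those of CENPM (0.47 ± 0.22), CDK11B (0.31 ± 0.16), CCNE2 (0.57 ± 0.31), CDK3 (0.37 ± 0.24) and KIF22 (0.32 ± 0.23). On the lower side they were those of CCND2 (-0.52 ± 0.33), MCM5 (-0.38 ± 0.24), MCM6 (-0.42 ± 0.28 and -0.78 ± 0.66) and KIF23 (-0.28 ± 0.24). Both probe sets of MCM6 were lower on all 3 SE arrays, at 7.36, 7.51 and 7.11 against 7.82 and 7.68 in HE for the first, while the values of CCND2, MCM5 and CENPM rested on 1 HE array each. CENPM read 3.54 on HE replicate 2 and 4.45 to 4.47 on the other day 7 arrays. With 1 array left out, the differences ran from 0.01 to 0.92 for CENPM, 0.09 to 0.52 for CDK11B and 0.03 to 0.62 for KIF22.

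The change between days did not differ detectably with status. For the interaction of status and day 0 of 90 members passed (0.0% of all), with 0 at an unadjusted p under 0.05 (3.92% of all), and the largest standard error of a member was 1.34. Calls made in SE or in HE alone, 7 and 2 members (11.5% and 6.36% of all probe sets), are therefore not shown to differ between the statuses.

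**Figure D4:**
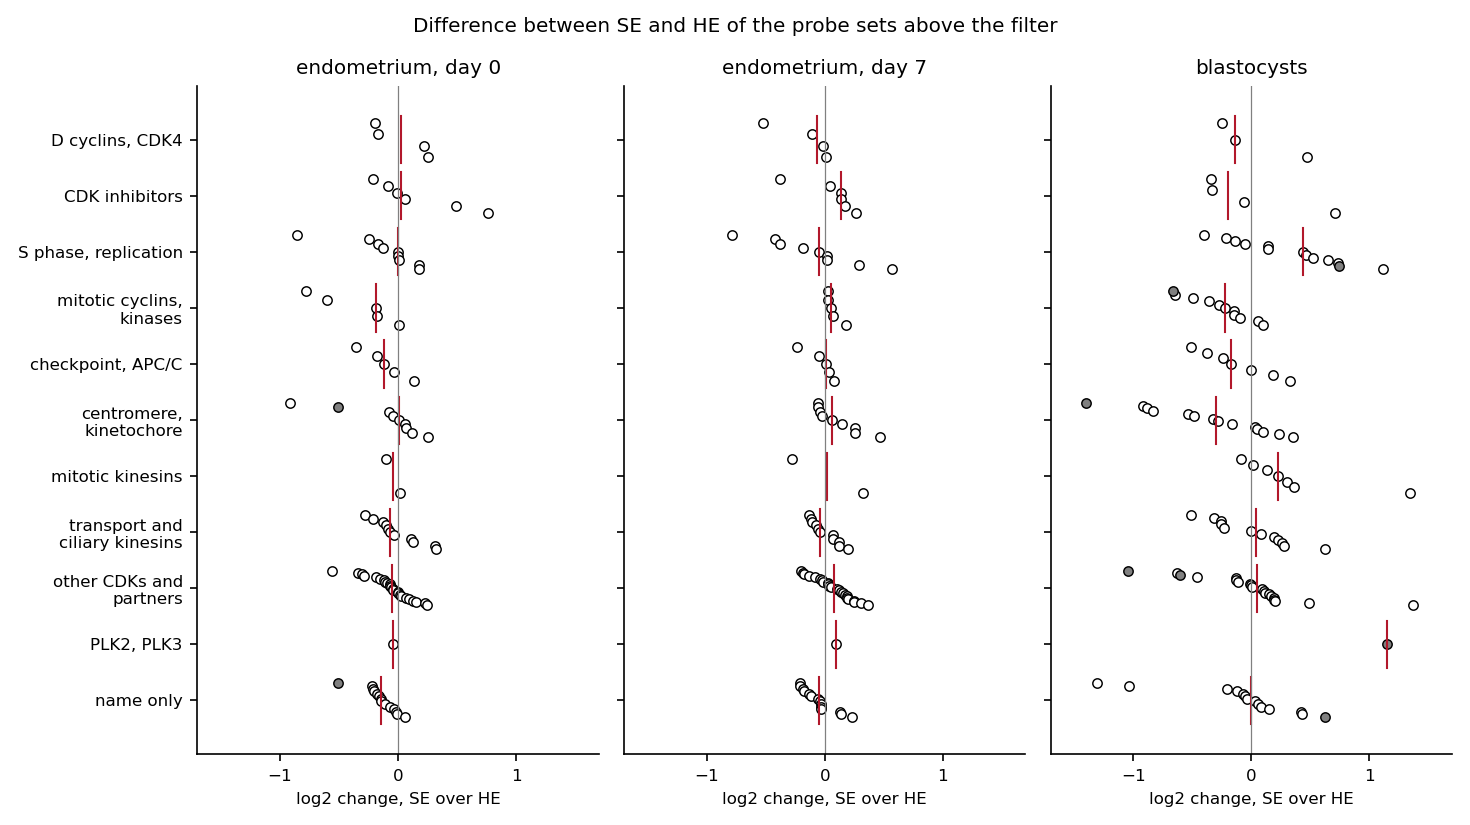
Difference of SE over HE on the log2 scale (horizontal axis) of members above the filter, by role, in endometrium on day 0 and day 7 (90 members each) and in blastocysts (106 members); grey points had an unadjusted p under 0.05 in limma's test, open points did not, and red bars are medians of a role. No point passed after adjustment; 2 grey points stand in the day 0 panel, 0 in the day 7 panel and 7 in the blastocyst panel.

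In blastocysts, SE over HE, 0 of 106 members passed limma's test (0.0% of all 11014 probe sets; smallest adjusted p among members 0.401), and 7 (6.6%) had an unadjusted p under 0.05, against 9.34% of all. The groups did not overlap for 14 members higher in SE (12.4% of all) and 17 lower (12.6% of all). The overall shares were near the background. Over all probe sets 51.5% of means were higher and 48.5% lower in SE. The roles are given below as descriptions, and differences between them were not tested.

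S phase probe sets had a median difference of 0.44, with 9 of 13 higher in SE, and 5 of them did not overlap. Those 5 belong to MCM3, MCM4, MCM5, MCM6 and MCM7, a grouping named after the values were seen. MCM4 read 10.87, 11.12 and 10.72 in SE against 10.27 and 10.04 in HE (0.75 ± 0.18, unadjusted p = 0.0111 and adjusted p = 0.412 by limma). MCM5 read 7.55, 7.57 and 6.87 in SE against 6.65 and 6.71 in HE (0.65 ± 0.27). The differences of MCM7, MCM3 and the first probe set of MCM6 were 0.46, 0.14 and 0.14, and the second probe set of MCM6 was at 1.12 ± 0.74 with overlap. All 6 probe sets were on the higher side.

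Kinetochore probe sets had a median of -0.30, with 9 of 14 lower, 7 of them without overlap, and 1 higher without overlap. CENPF, a kinetochore protein of G2 and mitosis, read 6.86, 6.41 and 6.12 in SE against 7.69 and 8.03 in HE (-1.40 ± 0.27, unadjusted p = 0.00498 and adjusted p = 0.401 by limma). Its other probe set differed by -0.53 ± 0.24 and did not overlap either. NDC80, the scaffold of microtubule attachment, read 7.69, 8.84 and 8.47 in SE against 9.12 and 9.32 in HE (-0.89 ± 0.38). SPC24 of the same complex was the exception, at 0.24 and higher in SE without overlap.

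Mitotic cyclins and kinases had a median of -0.22, with 9 of 11 lower. CDK1 read 10.56, 10.89 and 10.30 in SE against 11.32 and 11.18 in HE (-0.66 ± 0.22, unadjusted p = 0.0323 and adjusted p = 0.485 by limma). AURKA differed by -0.64 ± 0.27 with 1 probe set and by -0.14 ± 0.20 with the other. CCNB1 differed by 0.05 ± 0.20, CCNA2 by -0.36 ± 0.35 and PLK1 by -0.15 ± 0.24, with overlap. BUB1 differed by -0.38 ± 0.21 and PCNA by -0.14 ± 0.18.

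Mitotic kinesins had a median of 0.23, with 6 of 7 probe sets higher in SE. KIF20A differed by 1.34 ± 0.55 with 1 probe set, where SE replicate 2 read 7.93 and the others 6.72 and 6.34, and by 0.13 ± 0.18 with the other. KIF22 differed by 0.36 ± 0.26, the chromosome motor KIF4A by 0.30 ± 0.40 and the depolymerase KIF2C by 0.23 ± 0.25. KIFC1, a motor of the spindle poles, was the 1 below 0, at -0.09 ± 0.16.

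**Figure D5:**
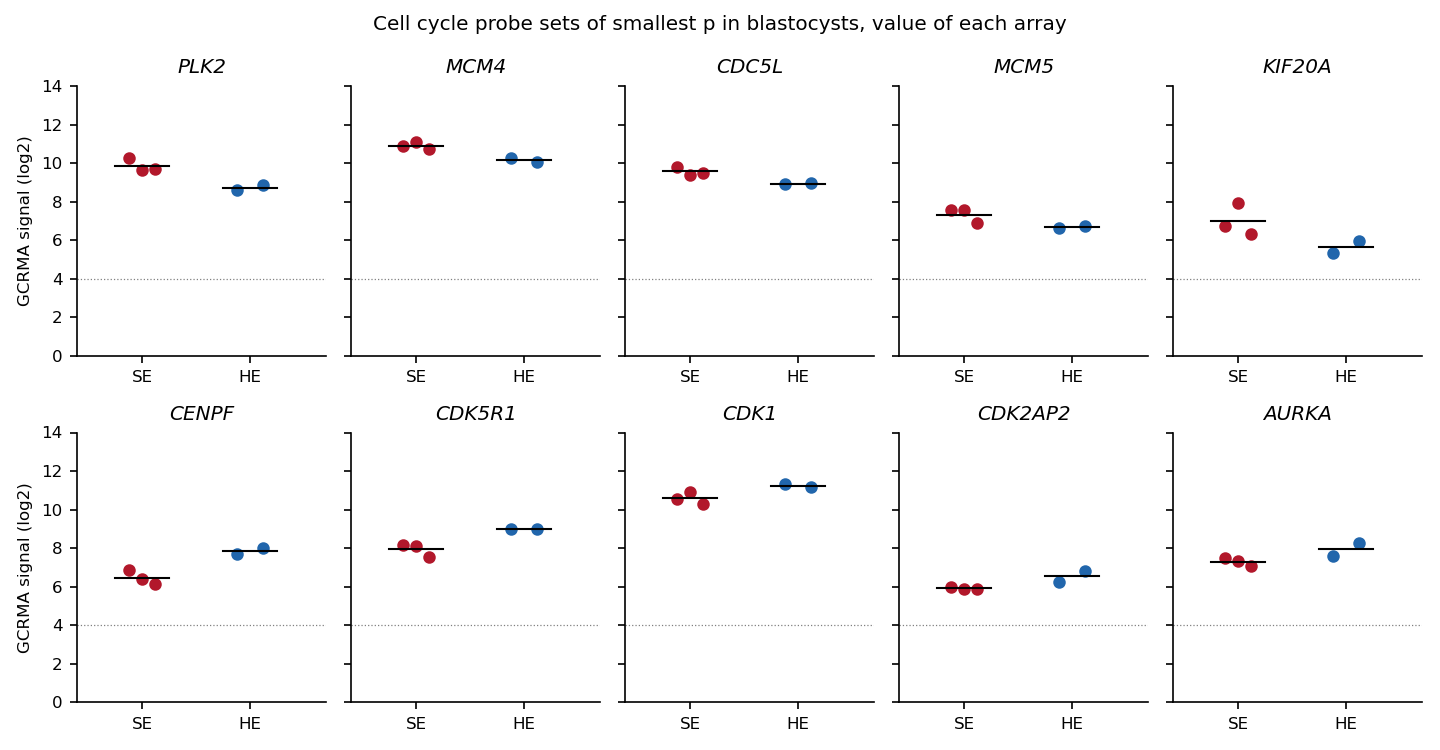
GCRMA signal (log2, vertical axis) on each blastocyst array for the 5 members of smallest p on the higher side (top row) and on the lower side (bottom row), 3 SE arrays in red left of 2 HE arrays in blue; black bars are means and the dotted line marks the filter at 4. In each panel all SE points lie to 1 side of the HE points, and 0 of these differences passed after adjustment; 1 probe set is drawn where a gene has several.

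Outside these roles, PLK2, a kinase induced by stress and growth signals, read 10.26, 9.65 and 9.71 in SE against 8.58 and 8.87 in HE (1.15 ± 0.25, unadjusted p = 0.0077 and adjusted p = 0.403 by limma). The splicing factor CDC5L was higher in SE with both probe sets, by 0.63 ± 0.17 and 0.43 ± 0.22, without overlap. CDK5R1, an activator of CDK5, differed by -1.04 ± 0.23 with 1 probe set and by -0.11 to -0.13 with the other 3. Those 3 had median percentiles of 99.5 or more in endometrium, against 34.5 for the 1 at -1.04. The transcripts they bind were not checked, and the 3 are among the 24 probe sets of other CDKs tested in endometrium. CDK2AP2 differed by -0.61 ± 0.22. The GAPDH 3′ minus 5′ difference was 5.47 to 5.85 on SE and 4.97 to 5.11 on HE blastocyst arrays. The same differences of the actin, cyclophilin and eIF4E controls overlapped between the statuses. That of actin was 3.83 to 4.03 on SE and 3.61 to 4.72 on HE arrays. The part of RNA quality in the differences between SE and HE blastocysts was not tested.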

How the data were processed

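The deposited log2 values are GCRMA signals of 24128 probe sets on 16 arrays, made by the authors; the submitters' processing notes name GCRMA and limma without a version. The scanned arrays were not used here. Controls (112) were left out. Names came from the platform annotation, and all 141 members were found in a RefSeq gene table (ARS-UCD2.0) with the same symbol; no genome or promoter sequence was used. The members and gene lists were chosen with earlier results of these data known.

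Values were tested in R 4.3.3 with limma 3.58.1 (group means, empirical Bayes without trend, two-sided). The 11 endometrium arrays entered 1 fit and the 5 blastocyst arrays another. A probe set needed a signal over 4 on 2 or more arrays, which left 13421 and 11014. The Benjamini-Hochberg adjustment ran over all of these (threshold 0.05). The procedure was tested on simulated data. Errors given with changes are standard errors from limma. Genes named are members past the threshold, up to 12 a direction by p, filled to 5 a direction where fewer passed, plus a list of core cycle genes, genes whose probe sets disagree and up to 4 other cell cycle genes a direction. Alternatives changed the filter, intensity trend, array weights, quantile normalization, gene means, arrays fitted, replicate block and arrays left out. The number of arrays limits every value. Same-numbered endometrium arrays deviated together at r of -0.27 to 0.24, so the numbers were not taken as pairs.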

Additional observations from a re-analysis of the deposited data

How the results depend on the processing

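The counts of members past the threshold stayed within 1.5 times of those reported under every alternative run. For day 7 over day 0 they were 24 to 33 in SE and 22 to 29 in HE under the other settings, and 26 to 32 in SE and 20 to 29 in HE with 1 array left out. At least 24 of the 32 SE calls and 19 of the 27 HE calls were among them each time. Leaving out SE day 0 replicate 2, the array that stands apart, gave 29 in SE and 28 in HE. With the replicate block the counts were 29 in SE and 24 in HE. Every setting run, replicate blocks included, gave 0 for SE over HE on day 0, on day 7 and in blastocysts and for the interaction.

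Of 47 called changes printed for single members, 35 kept their call under every alternative. Those that lost it were CCNDBP1, whose SE change was 0.39 (adjusted p = 0.0541) with only the groups compared and 0.14 (adjusted p = 0.36) as a gene mean, and CCND1, BUB3, CCNE2, CDC37, CDK1, MCM6 (second probe set), CENPI and AURKAIP1, whose values without the deciding arrays stand beside the results. CCNE2 and CDK1 in SE and that probe set of MCM6 in both statuses also missed the threshold with no filter. With only the groups compared, the SE calls of CCNE2 (adjusted p = 0.0813), CDK1 (0.0626), that probe set of MCM6 (0.0653) and CDC37 (0.0613) were lost too, and with array weights that of CDK1 (0.0545). CDK1 and CDC37 in SE and that MCM6 probe set in HE did so with the replicate block, at 1.09 (adjusted p = 0.0833), -0.48 (0.054) and -1.79 (0.0535).

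A change of sign was seen in 15 results, 0 of which had passed the test; the cause was not tested beyond which array was left out. With 1 array left out, day 7 over day 0 ranged in SE from -0.19 to 0.20 for CCND2, -0.26 to 0.034 for the second probe set of CCNDBP1, -0.0913 to 0.29 for CDK4 and -0.0166 to 0.0122 for PLK1. In HE it ranged from -0.28 to 0.30 for CDK4 and -0.57 to 0.14 for the first probe set of CDK7. Array weights gave -0.0278 for CCND2 in SE, quantile normalization -0.0128 for CDK4 in HE and 0.0245 for PLK1 in SE, and gene means 0.14 for CCNDBP1 in SE and 0.66 for CDK7 in HE. SE over HE ranged on day 7 from -1.12 to 0.0763 for CCND2, reversed without HE replicate 1, and from -0.86 to 0.10 for MCM5, reversed without HE replicate 2, as was its interaction, at -0.86 to 0.10. On day 0 KIF27 ranged from -0.0283 to 0.53. In blastocysts the ranges were -0.11 to 0.16 for CCNB1, -0.43 to 0.63 for CCNB2, -0.58 to 0.15 for CCNE2, -0.18 to 0.84 for CDC20 and -0.55 to 0.05 for CDK4, and a block by the pool numbers of the titles gave 0.0307 for CCNE2.

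The promoter motifs of the members were not run, since no promoter sequence was used here. With 2 or 3 pools a group, differences near the standard errors given could not be seen.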
